A study of Mus musculus with 12 samples.

Results

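The enzymes that make serine and load its carbon onto folate were followed as a set of 9 genes, represented by 22 probe sets among the 45037 probe sets tested and 18193 named genes. A probe set belonged to the set when its only gene symbol in the platform's probe-to-gene table was Phgdh, Psat1, Psph, Shmt1, Mthfd1, Shmt2, Mthfd2, Mthfd1l or Aldh1l2. The first 5 encode enzymes of the cytosol and the other 4 encode enzymes of the mitochondrion. Expression was read on 12 Affymetrix MOE430 v2 arrays, 3 for each of 4 groups, from TSC2-/- mouse embryonic fibroblasts (MEFs), which lack a brake on the growth kinase mTOR, grown in DMEM with 10% CCS. In the first experiment cells received DMSO vehicle or 20 nM rapamycin, an mTOR inhibitor, for 14 h. In the second, confluent cells were infected for 10 h with adenovirus expressing GFP or PGC-1alpha, a coactivator known for raising mitochondrial genes, and were harvested 14 h after a medium change. Every group carries the Tsc2 deletion, and no array of wild-type cells was analysed here. The series calls the arrays of a group biological triplicates, but nothing in the labels says that they came from separate cultures, so the p-values measure only the spread between these arrays.

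Serine is made from the glycolytic intermediate phosphoglycerate by Phgdh, which oxidises it, Psat1, which adds the amino group, and Psph, which removes the phosphate. Serine hydroxymethyltransferase then moves a carbon from serine to tetrahydrofolate, giving glycine. The mitochondrial arm of folate metabolism (Shmt2, Mthfd2, Mthfd1l) oxidises that carbon to formate, which leaves the organelle. In the cytosol Mthfd1 turns formate into the folate forms used to build purines and thymidylate, and Shmt1 catalyses the same exchange as Shmt2. Aldh1l2 oxidises formyl-folate to carbon dioxide inside mitochondria and is the counterpart of the cytosolic Aldh1l1. Several of these genes are known targets of ATF4, a transcription factor of the amino acid response.

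RefSeq start sites on GRCm38.p6 were listed for 8 of the 9 genes, all but Aldh1l2, in windows of 300 bases running from 250 bases before to 50 after each start. The 150 bases before the first listed start are printed for the serine enzymes Psph and Psat1 and for the mitochondrial and cytosolic counterparts Shmt2 with Shmt1 and Mthfd2 with Mthfd1, because the results below turn on them. They read 5′ to 3′ on the strand of the gene, and capitals mark the CCAAT box on either strand (CCAAT or ATTGG).
Psph promoter, chr5:129787254-129787403, minus strand: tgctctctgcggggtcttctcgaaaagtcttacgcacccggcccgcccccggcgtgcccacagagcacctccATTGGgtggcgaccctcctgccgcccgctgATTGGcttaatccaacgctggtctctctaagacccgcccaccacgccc
Psat1 promoter, chr19:15925060-15925209, minus strand: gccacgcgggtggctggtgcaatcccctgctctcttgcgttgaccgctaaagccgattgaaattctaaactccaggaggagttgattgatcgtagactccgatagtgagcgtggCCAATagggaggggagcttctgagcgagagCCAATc
Shmt2 promoter, chr10:127522445-127522594, minus strand: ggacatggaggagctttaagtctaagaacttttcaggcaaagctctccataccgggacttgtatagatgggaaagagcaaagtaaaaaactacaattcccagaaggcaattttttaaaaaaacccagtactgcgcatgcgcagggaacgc
Shmt1 promoter, chr11:60811266-60811415, minus strand: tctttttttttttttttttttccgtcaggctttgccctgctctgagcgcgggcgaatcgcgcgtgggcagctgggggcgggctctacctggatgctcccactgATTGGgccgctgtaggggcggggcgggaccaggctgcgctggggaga
Mthfd2 promoter, chr6:83317605-83317754, minus strand: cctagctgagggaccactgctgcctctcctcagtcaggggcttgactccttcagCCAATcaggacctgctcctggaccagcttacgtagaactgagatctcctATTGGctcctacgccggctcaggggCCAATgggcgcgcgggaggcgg
Mthfd1 promoter, chr12:76255082-76255231, plus strand: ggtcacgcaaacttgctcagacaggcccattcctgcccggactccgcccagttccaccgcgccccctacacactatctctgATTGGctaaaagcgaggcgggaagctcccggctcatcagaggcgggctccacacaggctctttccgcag
CCAAT stood in the windows of 6 genes, namely Phgdh, Psat1, Psph, Shmt1, Mthfd1 and Mthfd2, against 37.4% of all 32851 windows in the table. The Mthfd2 window held 3 copies, starting 96, 47 and 22 bases before the start. Psat1 also had 3 matches, starting 36 and 6 bases before a listed start and at base 24 after one. The windows of Shmt2 and Mthfd1l held none, so the stretch of Shmt2 has no capitals. The core of the C/EBP-ATF response element, TGATGNAA, was in 0 of the 8 genes' windows and in 3.97% of all, and a YY1 core, AANATGGC, was in 0 of the 8 and in 6.05% of all. Both strands were searched. These are matches of letters in a short window and say nothing on binding.

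The arrays were alike in level, with median intensities between 77.5 and 81.0. Fibroblast genes marked the cells, with 13 of 15 markers above a log2 value of 8 in the mean of the 12 arrays and Fn1, Col1a1, Col3a1 and Vim the brightest, whereas 0 of 10 macrophage and leukocyte markers and 0 of 8 endothelial markers had a mean above that value. Of the epithelial markers 4 of 10 had one, as did 1 of 8 muscle markers. The fibroblast markers summed to 66437 to 68313 on vehicle arrays and 71465 to 76789 on rapamycin arrays, and to 56865 to 61840 with GFP and 60946 to 61387 with PGC-1alpha. With rapamycin 9 of the 15 rose and 0 fell. Markers of other cells moved as well: 2 of 10 leukocyte markers rose (Cd68 by 0.29 and Cd14 by 0.19), and their sum was 923 to 952 with vehicle and 992 to 1022 with rapamycin. Of the epithelial markers Krt18 rose by 0.56, Krt7 by 0.52 and Cdh1 by 0.24, Krt19 fell by 0.40, and the sum was 2763 to 2825 against 2809 to 2932. The muscle marker Des fell by 0.23 (sum 781 to 842 against 758 to 801), and 0 of the 8 endothelial markers were called. With PGC-1alpha 0 markers of the 5 lists were called. The part of these shifts in the results was not tested. Ppargc1a, which encodes PGC-1alpha, read 80.97, 80.97 and 101.4 on the GFP arrays and 2295, 2183 and 2554 on the PGC-1alpha arrays. The ratio of 3' to 5' signal of the Gapdh control, a sign of RNA integrity, was 0.840 to 0.861 with vehicle and 0.807 to 0.826 with rapamycin, and 0.865 to 0.879 with GFP and 0.894 to 0.905 with PGC-1alpha. The ratio for transferrin receptor was 3.558 to 3.890 with vehicle, 3.811 to 4.171 with rapamycin, 2.954 to 3.016 with GFP and 2.979 to 3.385 with PGC-1alpha, and that for beta-actin lay between 1.256 and 1.329 in all groups. These overlapped within each comparison, whereas the Gapdh ratio did not. Their part in the results was not tested either. Bacterial spike controls averaged 10.50 to 10.60 (log2) on vehicle arrays and 10.62 to 10.83 on rapamycin arrays. Scaling on them lowered the median change over all probe sets with rapamycin to -0.19 and raised that with PGC-1alpha to 0.165. With that scaling 7.24% rather than 45.1% of the rapamycin calls were rises, and 91.1% rather than 51.1% of the PGC-1alpha calls. All changes below are relative to the authors' normalization unless spike scaling is named.

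The rapamycin comparison asked what inhibiting mTOR does to these transcripts. By the probe set brightest over the 12 arrays, 8 of the 9 genes fell and 0 rose, with log2 changes of -0.49 to -1.44. A fall or rise is stated for an adjusted p under 0.05 by limma with Benjamini-Hochberg adjustment over all 45037 probe sets. In this comparison 29.3% of all 18193 genes were called, 18.0% lower and 11.3% higher. The median change of the 9 genes was -0.95, against -0.01 over all genes. Counting every probe set, 21 of 22 fell, whereas 14.0% of all probe sets were called lower. All rapamycin arrays lay below all vehicle arrays for 20 of the 22, against 19.9% of all probe sets. The exception by the brightest probe set was Shmt1, the cytosolic serine hydroxymethyltransferase. The rapamycin arrays counted in the choice of the brightest probe set, which matters for Shmt1, as given below.

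**Figure D1:**
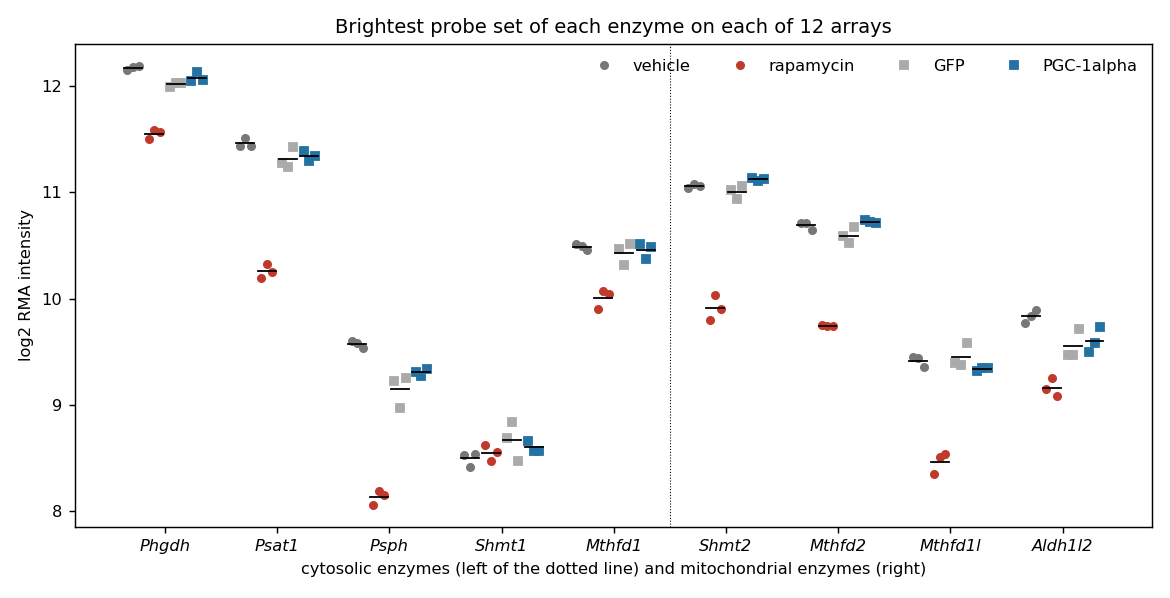
Log2 RMA intensity (vertical axis) of the brightest probe set of each of the 9 genes on each of 12 arrays, by group; short lines are group means of 3 arrays. Red rapamycin points lie below the grey vehicle points for every gene but Shmt1, while GFP and PGC-1alpha squares lie close together; heights of different genes, and of the 2 experiments, cannot be compared because probe sets differ in brightness and the experiments were normalized apart.

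All 3 enzymes of serine synthesis fell, with larger log2 changes for Psph and Psat1 than for Phgdh. Psph, the phosphatase of the last step, read 774.5, 764.2 and 746.5 on the vehicle arrays and 267.7, 292.9 and 284.3 on the rapamycin arrays. The groups were far apart, and the fall of 2.71-fold (log2 change -1.44, SE 0.06, adjusted p = 1.0e-08 by limma) ranked 2 among all 18193 genes ordered from the deepest fall. Psat1, the aminotransferase, read 2782, 2911 and 2782 with vehicle and 1169, 1286 and 1217 with rapamycin. It fell 2.31-fold (log2 change -1.21, SE 0.06, adjusted p = 5.0e-08 by limma) and ranked 10. The dimmer Psat1 probe set fell by 0.96.

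Phgdh, the dehydrogenase that commits carbon to serine, was the brightest of the set at 4540, 4627 and 4662 with vehicle and 2905, 3088 and 3036 with rapamycin. It fell 1.53-fold (log2 change -0.62, SE 0.05, adjusted p = 2.7e-06 by limma). All 4 of its probe sets fell, by 0.50 to 0.72, and none overlapped between groups. Each of these 4 has the suffix that Affymetrix gives to sets with probes that may bind other transcripts, and how far they do so here was not tested. The platform table pairs 2 further probe sets with Phgdh and a second gene symbol. They were left out by the rule, and read 1323 to 1352 and 1736 to 1826 with vehicle against 807.7 to 890.2 and 1073 to 1188 with rapamycin.

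Within each array, Psph was set against Phgdh as a difference of log2 values, a pair chosen after the values were seen and therefore given with no test. This log ratio was -2.60 ± 0.05 with vehicle and -3.42 ± 0.02 with rapamycin (SD, n = 3 each), a change of -0.82 (SE 0.03). For Psat1 over Phgdh it went from -0.71 ± 0.04 to -1.30 ± 0.03 (SD, n = 3 each), a change of -0.59. The groups did not overlap for either pair, nor for any of the 4 and 8 combinations of their probe sets, where the changes ran from -0.94 to -0.72 and from -0.71 to -0.24. The size of the gap therefore varied with the probe set read, most for Psat1.

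The 4 mitochondrial folate enzymes all fell, and each of their 8 probe sets fell with no overlap between groups. Shmt2, the mitochondrial serine hydroxymethyltransferase, read 2112, 2165 and 2141 with vehicle and 893, 1047 and 956.4 with rapamycin, a 2.22-fold fall (log2 change -1.15, SE 0.06, adjusted p = 1.3e-07 by limma) that ranked 18 among all genes. Its other 3 probe sets fell by 0.50, 0.74 and 1.03, so the size of the Shmt2 change depended on the probe set. All Shmt2 probe sets but 1426423_at, the one that fell by 1.03, have the same suffix as those of Phgdh. How far they bind other transcripts was not tested. Mthfd2, the mitochondrial methylene-tetrahydrofolate dehydrogenase and cyclohydrolase, read 1678, 1677 and 1612 with vehicle and 858.6, 854.4 and 856.3 with rapamycin. Its rapamycin arrays were nearly equal, and its fall was 1.93-fold (log2 change -0.95, SE 0.05), with the second probe set at -1.07.

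Mthfd1l, the mitochondrial formyl-tetrahydrofolate synthetase that releases formate, read 697.9, 694.2 and 655.5 with vehicle and 325.4, 365.1 and 371.6 with rapamycin. This fall too was 1.93-fold (log2 change -0.95, SE 0.06, adjusted p = 4.5e-07 by limma). Aldh1l2, which oxidises formyl-folate, read 875.2, 918.5 and 951.8 with vehicle and 566.4, 608.2 and 541.9 with rapamycin, a 1.60-fold fall (log2 change -0.68, SE 0.06) and the smallest of the 4. Both genes have a single probe set, so no second reading was at hand.

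Of the cytosolic folate enzymes, Mthfd1 fell and Shmt1 depended on the probe set. Mthfd1, the cytosolic enzyme with 3 activities that interconverts folate forms, read 1458, 1443 and 1404 with vehicle and 952.7, 1072 and 1051 with rapamycin, a 1.40-fold fall (log2 change -0.49, SE 0.06, adjusted p = 4.0e-05 by limma). Its other probe sets fell by 0.60 and 0.37. The last of these was dim, at 85.75 to 111 with vehicle and 67.43 to 85.91 with rapamycin. Its groups overlapped, and its call was lost without rapamycin replicate 1 and without vehicle replicate 2.

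The 4 Shmt1 probe sets did not move together. The brightest over 12 arrays, 1425177_at, read 369.5, 342.9 and 372.4 with vehicle and 392.8, 354.5 and 376.2 with rapamycin, and the groups overlapped. Its log2 change was 0.05 (95% interval -0.08 to 0.18, adjusted p = 0.622 by limma). By contrast 1425179_at, almost as bright, read 366.3, 355.4 and 362.3 with vehicle and 235.4, 234.8 and 234.8 with rapamycin, a 1.54-fold fall (log2 change -0.62, SE 0.05, adjusted p = 1.9e-06). Mean log2 values of 1425177_at and 1425179_at were 8.50 and 8.50 with vehicle, 8.67 and 8.47 with GFP, and 8.60 and 8.78 with PGC-1alpha. With rapamycin they were 8.55 and 7.88. So 1425177_at stood for Shmt1 in part because it did not fall with rapamycin. The probe sets 1422198_a_at and 1425178_s_at fell by 0.58 and 0.27. So 3 of 4 readings of Shmt1 fell, and the mean of all 4 fell by 0.35. The platform table gives the same source accession for 1425177_at, 1425178_s_at and 1425179_at, and which Shmt1 transcripts each detects was not tested.

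**Figure D2:**
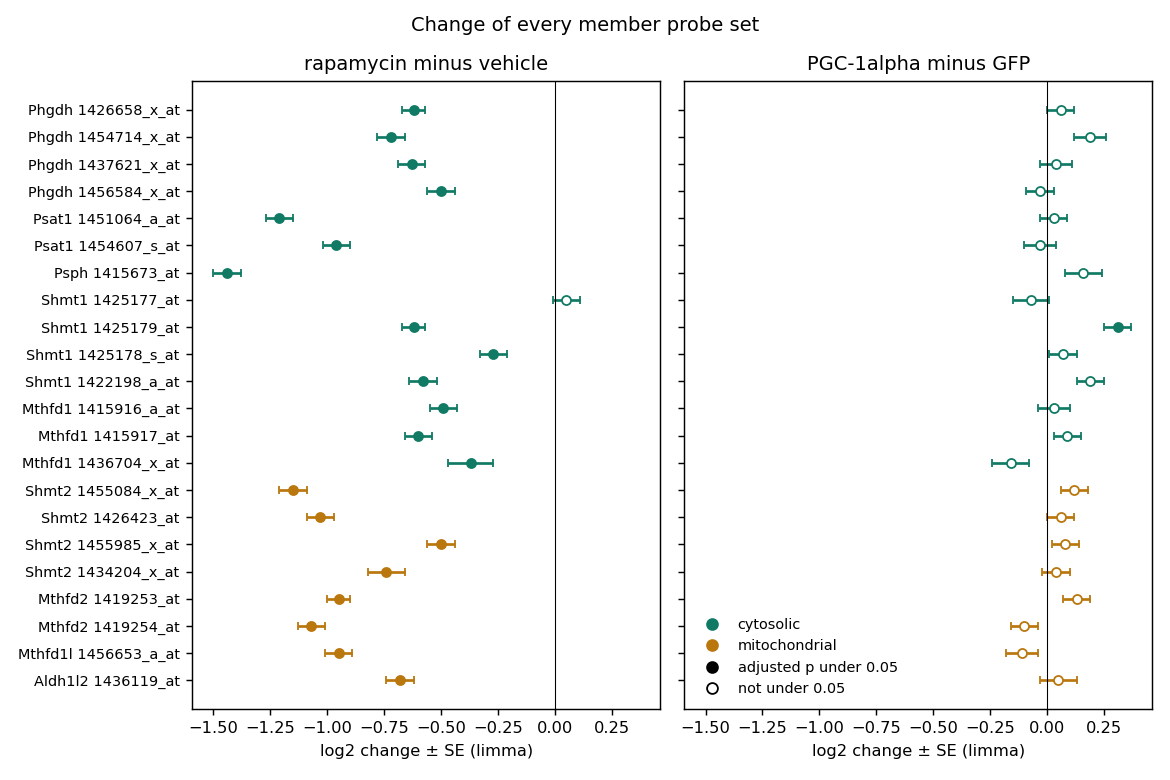
Log2 change with its moderated SE (horizontal axis) of each of the 22 probe sets for rapamycin minus vehicle (left) and PGC-1alpha minus GFP (right), 3 arrays per group; green marks cytosolic and ochre mitochondrial enzymes, and filled points have an adjusted p under 0.05. On the left 21 points are filled and lie below 0, with 1 Shmt1 probe set at 0.05; on the right only 1 Shmt1 probe set, at 0.31, is filled.

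The cytosolic and mitochondrial enzymes were compared by the log2 difference between a mitochondrial enzyme and its cytosolic counterpart within each array. Only a change of this log ratio between groups is read, since its level depends on how bright each probe set is. With 3 arrays against 3 the two-sided exact permutation p cannot be below 0.1, so no pair could pass a threshold of 0.05, and the p-values were adjusted over 8 tests (4 pairs in 2 comparisons). For Mthfd2 over Mthfd1 the log ratio was 0.20, 0.22 and 0.20 with vehicle and -0.15, -0.33 and -0.30 with rapamycin. The change was -0.46 (SE 0.05, exact permutation p = 0.1, adjusted p = 0.16), or 1.38-fold more loss of the mitochondrial transcript. For Mthfd1l over Mthfd1 it was -1.06, -1.06 and -1.10 with vehicle and -1.55, -1.55 and -1.50 with rapamycin, again a change of -0.46 (SE 0.02). All rapamycin arrays lay below all vehicle arrays, as they did for each of the 6 and 3 combinations of probe sets of these pairs, with changes of -0.70 to -0.35 and -0.58 to -0.35.

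For Shmt2 over Shmt1 the log ratio was 2.51, 2.66 and 2.52 with vehicle and 1.18, 1.56 and 1.35 with rapamycin, a change of -1.20 (SE 0.12, exact permutation p = 0.1). That value rests on 1425177_at, the Shmt1 probe set that did not move and that was chosen with the rapamycin arrays included. With 1425179_at in its place the change was -0.53, with 1422198_a_at -0.57 and with 1425178_s_at -0.88. Over all 16 combinations of Shmt2 and Shmt1 probe sets the change was lower in 14 and without overlap in 12, with a median of -0.50 and a range of -1.20 to 0.12. The 2 combinations above 0 set the Shmt2 probe set at -0.50 against the Shmt1 probe sets at -0.62 and -0.58. For Aldh1l2 over Aldh1l1 it went from 3.43, 3.59 and 3.52 to 3.03, 2.86 and 2.88, a change of -0.59 (SE 0.07). Aldh1l1 was dim throughout, at 69.31 to 83.65 over these 6 arrays, near the array medians, and could not be told from background. This log ratio therefore mostly repeats the fall of Aldh1l2 itself (-0.68) and is not read as a comparison of compartments.

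Compartment did not order the whole set. The deepest falls, of Psph and Psat1, were cytosolic, and Phgdh with -0.62 lay near Aldh1l2 with -0.68. Within folate metabolism, the 7 cytosolic probe sets ran from -0.62 to 0.05 with a median of -0.49, and the 8 mitochondrial ones from -1.15 to -0.50 with a median of -0.95. Probe sets of one gene share their target, so these medians are a description.

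**Figure D3:**
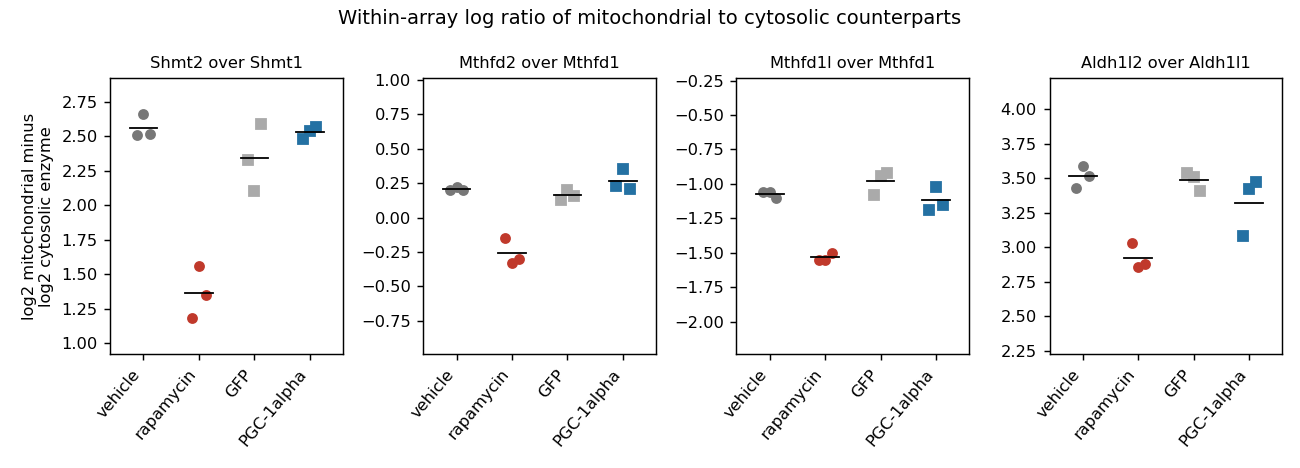
Log2 of the mitochondrial minus log2 of the cytosolic enzyme on each array (vertical axis, the same span of 2 log2 units in each panel) for 4 pairs of counterparts and 4 groups of 3 arrays; lines are means. Each gene is read by its brightest probe set only. Rapamycin points lie below all vehicle points in each panel, by -1.20, -0.46, -0.46 and -0.59 on average, while in the PGC-1alpha experiment only Mthfd2 over Mthfd1 shows groups that do not overlap, and the last panel mostly shows Aldh1l2, since Aldh1l1 was near the array medians.

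The PGC-1alpha comparison asked which of these transcripts the coactivator changes. By the brightest probe set 0 of the 9 genes passed with limma, and 0 had an unadjusted p under 0.05, while 2.01% of all genes were called. The 9 changes ran from -0.11 for Mthfd1l to 0.16 for Psph, with a median of 0.05 against 0.01 over all genes. Their 95% intervals lay between -0.25 and 0.32, and for each of the 8 genes that fell with rapamycin the interval excluded a fall of that size. Over all 22 probe sets 1 rose and 0 fell, against 1.95% called and 0.997% called higher among all probe sets. An unadjusted p under 0.05 was found for 3 of the 22 (13.6%), near the 11.6% of all probe sets. Groups did not overlap for 8 of the 22, with 7 higher and 1 lower, against 15.7% of all probe sets, 7.76% higher and 7.91% lower.

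Among the mitochondrial enzymes, Shmt2 read 2083, 1968 and 2138 with GFP and 2256, 2205 and 2247 with PGC-1alpha (log2 change 0.12, 95% interval -0.01 to 0.24, adjusted p = 0.481 by limma). The groups did not overlap, but the change did not pass the test. Mthfd2 read 1546, 1470 and 1629 with GFP and 1714, 1685 and 1673 with PGC-1alpha (0.13, adjusted p = 0.439), whereas its second probe set was at -0.10. Mthfd1l went the other way, from 669, 668.1 and 767.3 to 638.9, 654.6 and 651.3 (-0.11, 95% interval -0.25 to 0.03, adjusted p = 0.603). Aldh1l2 overlapped between groups, at 709.3 to 838.7 with GFP and 726.2 to 848.2 with PGC-1alpha.

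The serine enzymes gave similar readings. Phgdh was at 4067 to 4176 with GFP and 4232 to 4475 with PGC-1alpha (log2 change 0.06, adjusted p = 0.786 by limma), Psat1 at 2417 to 2757 and 2522 to 2681 (0.03), and Psph at 502.4 to 610.1 and 616.3 to 649.7 (0.16, 95% interval -0.01 to 0.32). Psph was lowest on GFP replicate 2. Mthfd1 overlapped, at 1279 to 1457 and 1325 to 1457 (0.03).

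The single call was a Shmt1 probe set. The probe set 1425179_at read 343.9, 338.1 and 384.5 with GFP and 452.7, 434.2 and 430.8 with PGC-1alpha, a rise of 0.31 on the log2 scale (SE 0.06, adjusted p = 0.0322 by limma). This call was lost when any array but GFP replicate 3 was left out (adjusted p = 0.113 to 0.15) and with spike scaling (adjusted p = 0.0914). The other Shmt1 probe sets were at 0.19, 0.07 and -0.07. Without GFP replicate 3, the array of its group on which 17 of the 22 probe sets were highest, 3 probe sets rose: this one, Shmt1 1422198_a_at and Phgdh 1454714_x_at. The log ratio of Mthfd2 over Mthfd1 was higher on all PGC-1alpha arrays (0.23, 0.35 and 0.21) than on all GFP arrays (0.13, 0.20 and 0.16), a difference of 0.10 (exact permutation p = 0.1, adjusted p = 0.16), but over the 6 combinations of probe sets the change ran from -0.19 to 0.29. The other 3 pairs overlapped between groups by their brightest probe sets. For Shmt2 over Shmt1, however, all PGC-1alpha arrays lay below all GFP arrays in 7 of 16 combinations of probe sets. Over these 16 the change ran from -0.27 to 0.19 with a median of -0.05. For Mthfd1l over Mthfd1 the PGC-1alpha arrays lay below in 1 of 3 combinations.

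The treatments were then compared as the rapamycin change minus the PGC-1alpha change in a limma fit over all 12 arrays. The 2 experiments differ in controls, handling and normalization, so treatment and experiment cannot be told apart in this difference. The difference was called for 8 of the 9 genes, always with the rapamycin change the lower, while 24.1% of all genes were called and 16.5% were called in that direction. Over probe sets 20 of 22 were called lower, against 12.0% of all. It was largest for Psph at -1.59 (SE 0.10, adjusted p = 4.0e-09), followed by Shmt2 at -1.27 and Psat1 at -1.24 (SE 0.09 each). Mthfd1 had the smallest called difference, at -0.51 (SE 0.09, adjusted p = 3.4e-04). Shmt1 by its brightest probe set was at 0.12 (SE 0.11, adjusted p = 0.516), although its other 3 probe sets were called at -0.34 to -0.93.

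The surrounding pathways were read from 7 lists holding 74 measured genes, whose counts stand against 18.0% of all genes called lower and 11.3% called higher with rapamycin. With rapamycin, all 5 measured genes of glycolysis around phosphoglycerate fell (median -0.44). These act before or after phosphoglycerate, so their fall is not a reading of its supply. Pgam1, the mutase that uses phosphoglycerate, was at -0.70, Tpi1 at -0.61 and Eno2 at -0.44. Among 7 enzymes of purine and thymidylate synthesis, pathways that use folate carbon at only some of their steps, 6 fell (median -0.54). Pfas was at -0.97, Atic, which takes up a formyl group, at -0.71 and Ppat at -0.65. Only Paics did not pass by its brightest probe set, at 0.08, while 1 of its 3 probe sets rose and 0 fell. Of 15 further enzymes and carriers of the folate cycle 5 fell and 1 rose (median -0.06), and 9 did not pass. The mitochondrial folate carrier Slc25a32 fell by 0.62, thymidylate synthase Tyms by 0.51 (1 of its 4 probe sets fell) and the reduced folate carrier Slc19a1 by 0.44. Slc25a32 (mean 85.94 with vehicle and 56.04 with rapamycin) and Tyms (100.3 and 70.66) were dim, near the array medians. No detection call was at hand to tell them from background. Mthfd2l, a relative of Mthfd2, rose by 0.23 by its brightest probe set (adjusted p = 0.0191 by limma), whereas its other 3 probe sets fell, so its direction is uncertain. With spike scaling 0 of the 15 rose and 9 fell.

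The list of glycine cleavage and choline-derived one-carbon enzymes had 2 of 9 genes lowered (Gcsh -0.47, Dld -0.23) and 0 raised. This share of the joint list was near the 18.0% of all genes called lower. It was 4 of 9 with spike scaling and 1 of 9 with quantile normalization over 12 arrays. Gcsh and Dld both belong to glycine cleavage, as does Gldc, which was dim (mean 59.62 with vehicle) and not called (-0.11). In the methionine cycle and transsulfuration 3 of 8 fell, namely Cth, which makes cysteine, by 1.34, Ahcy, which clears S-adenosylhomocysteine, by 0.62 and Mtap by 0.34. The list of serine and glycine transport and use went both ways, with 6 lowered and 4 raised of 14 (8 and 3 with spike scaling). Serinc3, named as a serine incorporator, rose by 0.85 with all 6 probe sets, serine racemase Srr by 0.71 (SE 0.20, 2 of 6 probe sets) and the mitochondrial carrier-like Sfxn3 by 0.70, while the amino acid transporter Slc1a5 fell by 0.55 (1 of 2 probe sets). Of 17 measured genes in the list of ATF4 and its known targets outside one-carbon metabolism, 16 fell and 0 rose (median -0.56), led by the transporter Slc7a5 (-1.15), Trib3 (-0.86) and Vldlr (-0.69). Atf4 itself read 3666, 3624 and 3586 with vehicle and 2431, 2561 and 2380 with rapamycin, and fell by 0.56 (SE 0.05). With PGC-1alpha 1 of the 74 genes passed, the transcription factor Cebpb, which rose by 0.33 (adjusted p = 0.0311 by limma). Over all genes 2.01% were called. With spike scaling the Cebpb call was lost, and with quantile normalization over 12 arrays 2 genes of the ATF4 list and 1 of the transport list rose. An unadjusted p under 0.05 was found for 16 of the 74 (21.6%) and for 12.2% of all genes. The smallest p in the other lists belonged to Alas1, the first enzyme of heme synthesis, which uses glycine (0.29, adjusted p = 0.0566), Ftcd (-0.23, 0.0799), Atic (0.25, 0.087), Slc1a5 (0.25, 0.0981) and Dld (0.26, 0.107).

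**Figure D4:**
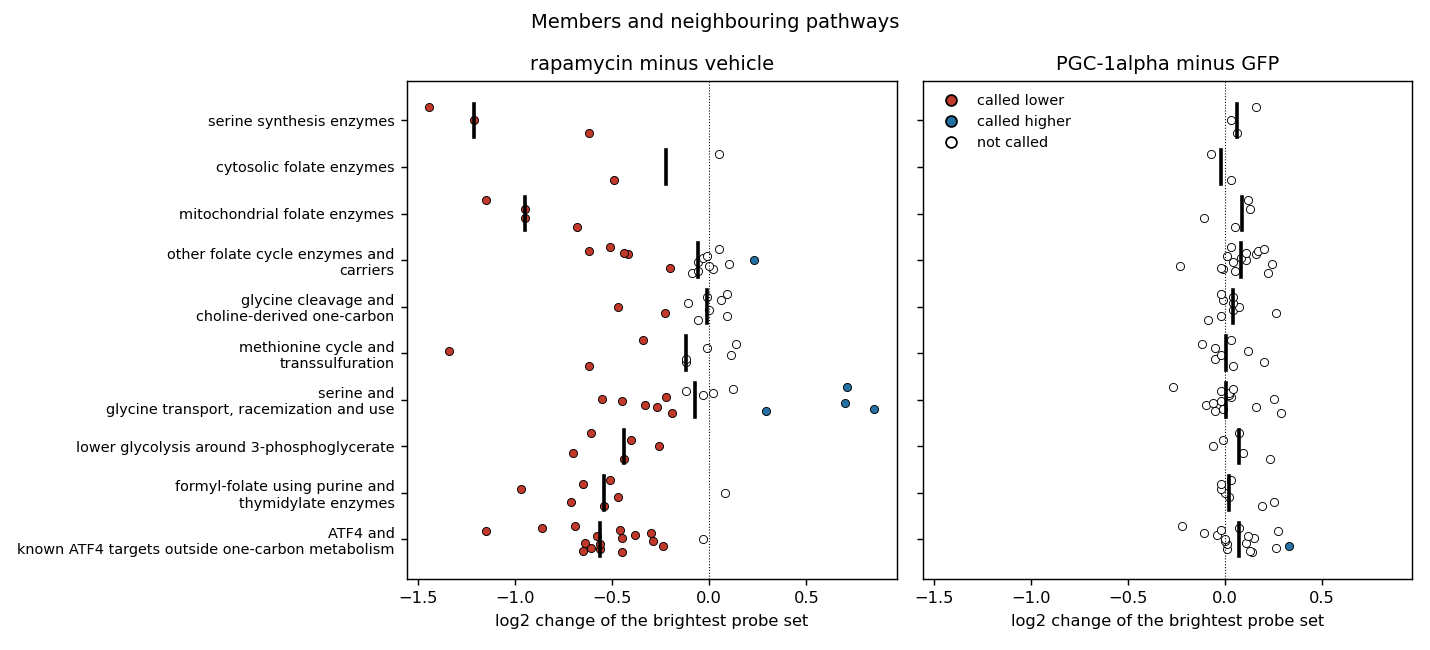
Log2 change of the brightest probe set (horizontal axis) of each gene in the 3 member lists and 7 neighbouring lists, for rapamycin minus vehicle (left) and PGC-1alpha minus GFP (right); vertical bars are list medians and fill shows the limma call. On the left serine synthesis and mitochondrial folate enzymes have medians of -1.21 and -0.95, below the ATF4 list at -0.56, and on the right all medians lie between -0.02 and 0.09.

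Genes of like pattern were found by the root mean square difference from each member over the 12 arrays, each array taken as log2 minus the mean of its control group, among 12675 other genes. For Psph the nearest were the origin licensing factor Cdc6 (0.087), Cth (0.113) and Ak4 (0.123). For Psat1 and for Shmt2 the nearest was Tmem97 (0.049 and 0.056), with Tk1, thymidine kinase, also among the first 3 of each. Shmt2 was the third nearest to Psat1, and this was the only member among the nearest 3 of another. Phgdh lay nearest to the mitochondrial chaperone Hspd1 (0.034), Mthfd2 to Ndc1 (0.035), Mthfd1 to Gnai1 (0.026), Mthfd1l to Pole2 (0.071) and Aldh1l2 to Zbtb8b (0.058) and then Asns (0.059), the asparagine synthetase. Changes with rapamycin dominate this measure.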

How the data were processed

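The authors deposited 1 intensity for each probe set and array, obtained by RMA (BioConductor 1.2, default parameters, per the series design text). The 6 arrays of each experiment were normalized as a batch of their own. Their range, 9.299 to 21072.43, was read as a linear scale and log2 was taken of the deposited intensity with no pseudocount, filter or detection call, so dim probe sets cannot be told from background. Levels were compared only within a batch. Quantile normalization hides a change in total RNA per cell. The number of arrays limits the precision. The 64 control probe sets were left out. Symbols were updated by Entrez ID to RefSeq (GRCm38.p6), matching 34741 of 34945 probe sets with 1 symbol. The probe set brightest over 12 arrays stood for a gene.

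Each comparison was fitted on its 6 arrays with limma 3.58.1 (lmFit, eBayes) in R 4.3.3, tested on simulated data, with Benjamini-Hochberg adjustment and a threshold of 0.05. The named genes were all members, Atf4, Ppargc1a, genes among the 3 of most like pattern to each member, and per list the 3 largest called changes with the largest opposite one, or the 2 smallest p (of the PGC-1alpha lists only some of the last are given). Paics was named after its values were seen. Members and lists were chosen with earlier results of these data known. Genes of the lists without a probe set were not analysed here. Alternatives were quantile normalization over 12 arrays, spike scaling (18 probe sets), a log2 minimum of 6, a replicate block, a trended robust prior, 1 fit over 12 arrays, the mean of all probe sets of a gene and leaving out each array.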

Additional observations from a re-analysis of the deposited data

How the results depend on the processing

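The counts of called members, 8 with rapamycin, 0 with PGC-1alpha and 8 for the difference, held under each alternative run, except that the mean of all probe sets of a gene called 9, 0 and 9. Shmt1 then turned from 0.05 to -0.35 with rapamycin and from 0.12 to -0.48 for the difference. The other 8 genes kept their fall with rapamycin in all 13 alternatives, with Psph between -1.63 and -1.38 and Mthfd1 between -0.68 and -0.41. The replicate block called 8, 0 and 8 and changed no other call of these genes. Whether the replicate numbers pair the arrays could not be decided. Same-numbered deviations correlated at -0.05, 0.07 and 0.00 for rapamycin and vehicle, and at -0.13, 0.23 and -0.01 for PGC-1alpha and GFP. Deviations of unlike number correlated at -0.14 to 0.15 and at -0.22 to 0.21. With 3 arrays per group such values cannot exclude pairing.

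With rapamycin the mitochondrial over cytosolic log ratios stayed below 0 in the alternatives run, but 2 of 16 combinations of Shmt2 and Shmt1 probe sets were above 0, up to 0.12. Shmt2 over Shmt1 moved from -1.20 to -0.50 with the mean of all probe sets, and to -0.57, -0.88 and -0.53 with the other Shmt1 probe sets, an alternative added after the data were seen. With PGC-1alpha it moved from 0.19 to -0.05, -0.07 and -0.19 under the mean, 1422198_a_at and 1425179_at. Mthfd2 over Mthfd1 with PGC-1alpha moved from 0.10 to 0.03 with the mean, and Aldh1l2 over Aldh1l1 with rapamycin from -0.59 to -0.49 with quantile normalization over 12 arrays. Leaving out 1 array gave -1.30 to -1.11 for Shmt2 over Shmt1 with rapamycin.

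The number of probe sets called in all, on which the background rests, was 11469 with rapamycin and 20004 with spike scaling, and for the difference 9304 and 17119. With PGC-1alpha it was 879, but 325 with spike scaling, 1485 in the fit over all 12 arrays and 283 to 2837 when 1 array was left out, the most without GFP replicate 3. The cause was not tested. The mean of all probe sets of a gene, with fewer features tested, called 6749, 176 and 5447 features for rapamycin, PGC-1alpha and the difference. These are not counts of genes, since each probe set with several symbols (932) or none (9160) stayed a feature of its own.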
